A study of Homo sapiens with 12 samples.

Results

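HABP4, BCL7B, LONRF3, MKKS, TESC, SERPINI1, NT5E, LCN15, PODXL2 and TPM2 are 10 of the 22148 genes measured here. They were selected on measured values, namely that the log2 change of their mRNA over 6 h of actinomycin D was lower in si-CPSF6 cells than in si-NC cells. The 0 h and 6 h libraries were therefore used in choosing them, and what those libraries show is described below without a test. The 3 h libraries are not part of that contrast, and the comparison of the arms at 3 h is tested. The working label speaks of a late rise, however, so that it is not certain that the 3 h values played no part in the choice. The symbol MKKS covers 3 gene identifiers in the deposited tables, so that the 10 genes make 12 entries. Of these, 11 passed the filter on low values (a mean normalized count of at least 20), among 12939 genes tested. The working label, genes that rise late in the control only, fits a part of the set. In si-CPSF6 9 of the 11 entries were also higher at 6 h than at 0 h on the deposited scale, and in si-NC the larger step came after 3 h in 8 of the 11. The genes are therefore named individually or by how they were chosen.

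The cells were HepG2, a human hepatoblastoma line that keeps much of the hepatocyte programme. One arm received small interfering RNA against CPSF6 (si-CPSF6) and the other a control small interfering RNA (si-NC), and both were cultured for 48 h, then exposed to 5 µg/ml actinomycin D and collected at 0, 3 and 6 h, with 2 biological replicates for each arm and time. Both arms thus carry a transfected siRNA and both were given actinomycin D, and every sample is 1 of these 12 libraries of a single cell line. Spike-in RNA of the ERCC set was added to 5 µg of total RNA before mRNA libraries were made. Actinomycin D stops transcription by binding DNA, so that the mRNA left at later times is used to read stability. CPSF6 is a subunit of cleavage factor Im, which binds pre-mRNA near the polyadenylation site and takes part in choosing where the 3′ end is cut. Because a fixed mass of RNA is sequenced while total mRNA declines, the share of an mRNA that decays slowly can be higher at a later time with no new synthesis. An mRNA level per library therefore does not separate synthesis from decay, and in these bulk samples fewer cells with an mRNA and less of it per cell cannot be told apart.

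An estimated 21800000 to 30300000 reads per library were assigned to the listed genes and spike-ins, as recovered from the spacing of the deposited values. Of these, ERCC spike-ins were 1.13% to 1.43%. CPSF6 itself was at 674 and 801 normalized counts in si-CPSF6 at 3 h, against 3389 and 3309 in si-NC. The log2 difference was -2.19 (SE 0.09, limma adjusted p = 1.2e-10). All 9 hepatocyte markers examined were above 1 TPM (reads per transcript length, scaled to a fixed total), with a summed level of 18800 to 26000 TPM in si-CPSF6 and 20400 to 28200 TPM in si-NC. Of 9 markers of other cells 7 were listed and 2 (PDGFRB and CD14) averaged above 1 TPM, while VWF and COL3A1 reached at most 0.0244 and 0.0172 TPM and none was at 0 in every library. Their summed level was 12.2 to 18.4 TPM in si-CPSF6 and 5.24 to 6.53 TPM in si-NC. It moved with the arm, and its part in the results was not tested.

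The members span several parts of the cell. HABP4 is an RNA-binding protein that also binds hyaluronan, and BCL7B is a subunit of the SWI/SNF (BAF) chromatin remodelling complexes. LONRF3 carries a RING finger and a LON peptidase N-terminal domain, and MKKS is a chaperonin-like protein that helps to assemble the BBSome of the primary cilium and is mutated in McKusick-Kaufman and Bardet-Biedl syndromes. TESC (tescalcin) is a calcium-binding EF-hand protein that binds the sodium-proton exchanger NHE1. SERPINI1 (neuroserpin) is a secreted inhibitor of tissue plasminogen activator, NT5E (CD73) makes adenosine from AMP at the cell surface, LCN15 belongs to the lipocalins, and PODXL2 (endoglycan) is a sialomucin of the membrane. TPM2 is the beta chain of tropomyosin, which lies along actin filaments.

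Sequence just before the transcription start is shown for members picked by their mRNA values, and the use of starts was not measured. HABP4 differed most between the arms at 3 h. LONRF3, with BCL7B, was lower at 6 h than at 0 h in si-CPSF6. Both RefSeq starts of MKKS are shown, because its entries behaved differently. Each run is the 150 bases before a RefSeq start on build GRCh38.p14, 5′ to 3′ in the direction of the gene, and none of it overlaps an exon in GENCODE release 29. The positions are chr9:96450019-96450168 (plus strand) for HABP4, chrX:118974464-118974613 (plus strand) for LONRF3, chr20:10434223-10434372 (minus strand) for MKKS start 1 and chr20:10431926-10432075 (minus strand) for MKKS start 2. Capitals mark matches to the motifs searched.
HABP4: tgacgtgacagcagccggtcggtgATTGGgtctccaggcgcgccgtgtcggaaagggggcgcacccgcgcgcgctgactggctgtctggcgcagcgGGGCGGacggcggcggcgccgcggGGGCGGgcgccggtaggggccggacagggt
LONRF3: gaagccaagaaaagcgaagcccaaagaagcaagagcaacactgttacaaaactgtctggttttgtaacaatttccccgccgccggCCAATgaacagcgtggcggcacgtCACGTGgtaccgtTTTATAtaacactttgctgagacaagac
MKKS start 1: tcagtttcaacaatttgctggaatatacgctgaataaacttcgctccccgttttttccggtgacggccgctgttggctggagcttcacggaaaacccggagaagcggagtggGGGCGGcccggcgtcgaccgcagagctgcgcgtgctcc
MKKS start 2: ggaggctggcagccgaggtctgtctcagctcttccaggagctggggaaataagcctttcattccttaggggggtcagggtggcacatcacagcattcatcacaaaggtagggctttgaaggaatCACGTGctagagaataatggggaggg

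The motifs were the TATA box (letters TATAAA), the CCAAT box, the GC box (letters GGGCGG), the E-box (letters CACGTG), the AP-1 site (letters TGACTCA) and the GATA site (letters GATAAG), each searched on both strands from 250 bases before to 50 after the start, in the first-listed RefSeq entry of each gene. Of the 10 members 9 matched an entry (TESC did not), as did 9868 genes in all. The GC box letters were in 8 of the 9 and in 70.7% of all genes, and those of the CCAAT box were in 4 of the 9 and in 37.0%. The TATA box letters were in 2 of the 9 and in 5.24% of all genes: at 28 bases before the start on the minus strand in LONRF3 and at 32 bases before it on the plus strand in LCN15. The E-box letters were in 1 of the 9 (LONRF3, 41 bases before the start) and in 10.2%, while those of the AP-1 and GATA sites were in 0 of the 9 and in 2.85% and 3.69%. No match overlapped one to another motif. MKKS start 1 lies at the start of the gene and holds the GC box letters. Start 2 lies inside the gene, next to the start of the second MKKS entry. It holds the E-box letters 26 bases before the start and the TATA box letters 239 bases before it on the minus strand. These matches describe letters only.

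HABP4 had the widest gap between the arms of all members at 0 and 3 h. It lies on chromosome 9 (96450201 to 96491336, plus strand, hg38) and overlaps CDC14B on the opposite strand, so that its reads are certain only if strand was used in counting, which is not given in the sources used here. In si-CPSF6 it stood at 1171 and 1154 normalized counts at 0 h, 1602 and 1318 at 3 h and 1628 and 1518 at 6 h. In si-NC the counts were 248 and 228 at 0 h, 261 and 287 at 3 h and 1119 and 1084 at 6 h. Every si-CPSF6 library was above every si-NC library, and si-NC came close to the other arm only at 6 h. At 3 h HABP4 was 5.29-fold higher in si-CPSF6, a log2 difference of 2.40 (SE 0.10, limma adjusted p = 2.1e-10). Between 3 and 6 h its level was multiplied by 1.08 in si-CPSF6 and by 4.02 in si-NC.

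BCL7B (chromosome 7, 73536356 to 73558002, minus strand) went the other way between the arms. It was at 310 and 290 normalized counts at 0 h, 120 and 147 at 3 h and 99 and 107 at 6 h in si-CPSF6. The si-NC libraries held 505 and 480 at 0 h, 223 and 251 at 3 h and 555 and 679 at 6 h. The si-CPSF6 libraries were below the si-NC libraries at each time, and in si-NC the 3 h pair was the lowest and the 6 h pair the highest. The 3 h difference was -0.83 on the log2 scale (SE 0.14, limma adjusted p = 0.00015), which is 0.563 of the si-NC level. From 3 to 6 h the level was multiplied by 0.772 in si-CPSF6 and by 2.60 in si-NC.

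LONRF3 (chromosome X, 118974614 to 119018355, plus strand) is the other member that was lower at 6 h than at 0 h in si-CPSF6. Its normalized counts there were 247 and 260 at 0 h, 142 and 120 at 3 h and 99 and 113 at 6 h. Its si-NC counts were 72 and 68 at 0 h, 53 and 54 at 3 h and 109 and 102 at 6 h. The arms did not overlap at 0 and 3 h, with si-CPSF6 higher, and overlapped at 6 h. At 3 h LONRF3 was 2.41-fold higher in si-CPSF6 (log2 difference 1.27, SE 0.17, limma adjusted p = 1.6e-05).

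The gene MKKS (chromosome 20, 10401009 to 10434222, minus strand) showed little of the pattern it was listed for. Its main entry, ENSG00000125863, stood at 499 and 492 normalized counts at 0 h, 587 and 627 at 3 h and 645 and 678 at 6 h in si-CPSF6. Its si-NC counts were 984 and 958 at 0 h, 1310 and 1287 at 3 h and 1349 and 1469 at 6 h. The arms were apart at each time with si-CPSF6 lower, and the 6 h change differed between them by only -0.12 (SE 0.11), rank 5331 from the lowest of the 12939 genes. At 3 h it was 0.468 of the si-NC level, a log2 difference of -1.10 (SE 0.08, limma adjusted p = 6e-08).

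The second MKKS entry, ENSG00000285508 (10413520 to 10431922), is named AL034430.1 in GENCODE and lies within the gene on the same strand. It was at 119 and 120 normalized counts at 0 h, 196 and 239 at 3 h and 171 and 199 at 6 h in si-CPSF6. The si-NC counts were 43 and 92 at 0 h, 245 and 257 at 3 h and 340 and 323 at 6 h. The arms did not overlap, with si-CPSF6 higher at 0 h and lower at 3 and 6 h. Its 3 h difference of -0.21 did not pass (95% confidence interval -0.77 to 0.34, limma adjusted p = 0.50). The remaining entry, ENSG00000285723 (AL034430.2, 10420546 to 10420737), had 0 to 20 normalized counts and was not tested. All 3 entries overlap, and how reads were divided among them is uncertain.

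TESC (chromosome 12, 117038923 to 117099479, minus strand) was at 692 and 529 normalized counts at 0 h, 985 and 826 at 3 h and 1281 and 952 at 6 h in si-CPSF6. The si-NC libraries held 418 and 302 at 0 h, 784 and 621 at 3 h and 2202 and 1960 at 6 h. The si-CPSF6 pair was above the si-NC pair at 0 and 3 h, and below it at 6 h. The 3 h difference of 0.37 (95% confidence interval -0.10 to 0.84) did not pass, with limma adjusted p = 0.16. With the replicate number as a block it passed, with adjusted p = 0.00068, and in a fit of the 3 h libraries alone it passed with adjusted p = 0.017.

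Among the secreted and surface proteins, SERPINI1 (chromosome 3, 167735243 to 167825568, plus strand) was at 87 and 62 normalized counts at 0 h, 127 and 113 at 3 h and 151 and 181 at 6 h in si-CPSF6. Its si-NC counts were 44 and 33 at 0 h, 70 and 57 at 3 h and 298 and 255 at 6 h. The order of the arms was the same as for TESC, with no overlap at any time. At 3 h it was 1.88-fold higher in si-CPSF6 (log2 difference 0.91, SE 0.22, limma adjusted p = 0.0023). The step from 3 to 6 h multiplied its level by 1.38 in si-CPSF6 and by 4.35 in si-NC.

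NT5E (chromosome 6, 85449584 to 85495791, plus strand) was multiplied by 1.40 from 3 to 6 h in si-CPSF6, against 4.67 in si-NC, the largest such step of all members. In si-CPSF6 it was at 102 and 97 normalized counts at 0 h, 180 and 180 at 3 h and 260 and 243 at 6 h. In si-NC it was at 56 and 37 at 0 h, 72 and 67 at 3 h and 381 and 268 at 6 h. The arms did not overlap, and at 6 h the lower si-NC library was only just above the higher si-CPSF6 library. At 3 h NT5E was 2.57-fold higher in si-CPSF6, a log2 difference of 1.36 (SE 0.20, limma adjusted p = 5.2e-05).

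LCN15 (chromosome 9, 136759634 to 136766255, minus strand) was multiplied by 2.64 over the 6 h in si-CPSF6, against 11.5 in si-NC, the largest such factor of all members. It was at 287 and 160 normalized counts at 0 h, 564 and 400 at 3 h and 691 and 487 at 6 h in si-CPSF6. Its si-NC counts were 96 and 85 at 0 h, 266 and 216 at 3 h and 1285 and 790 at 6 h. Its standard error was the largest of the members, and the 3 h and 6 h libraries of si-CPSF6 overlapped. The 3 h difference was 0.98 (SE 0.34, limma adjusted p = 0.040), a factor of 1.98. This call was lost when any of 5 single libraries was left out, with adjusted p = 0.18 without si-CPSF6 3 h replicate 1, 0.16 without si-NC 3 h replicate 2, 0.071 without si-NC 3 h replicate 1, and 0.061 and 0.063 without si-NC 0 h replicates 1 and 2. It was also lost with no filter on low values (adjusted p = 0.060).

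PODXL2 (chromosome 3, 127629181 to 127672809, plus strand) had the highest counts of the members. In si-CPSF6 it stood at 1815 and 1617 normalized counts at 0 h, 3465 and 3039 at 3 h and 4584 and 4079 at 6 h. In si-NC it stood at 715 and 713 at 0 h, 1410 and 1460 at 3 h and 4666 and 4351 at 6 h. The si-CPSF6 libraries were higher at 0 and 3 h, and the arms overlapped at 6 h. At 3 h the difference was a factor of 2.26, or 1.18 on the log2 scale (SE 0.09, limma adjusted p = 4.6e-08).

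TPM2 (chromosome 9, 35681992 to 35690121, minus strand) was at 190 and 174 normalized counts at 0 h, 516 and 466 at 3 h and 734 and 572 at 6 h in si-CPSF6. In si-NC it was at 70 and 89 at 0 h, 331 and 295 at 3 h and 664 and 446 at 6 h. The si-CPSF6 pair was higher at 0 and 3 h and overlapped the si-NC pair at 6 h. Most of its change came early, with a factor of 2.70 from 0 to 3 h and 1.33 from 3 to 6 h in si-CPSF6, against 3.94 and 1.77 in si-NC. At 3 h it was 1.57-fold higher in si-CPSF6 (log2 difference 0.65, SE 0.18, limma adjusted p = 0.0079). Without si-CPSF6 3 h replicate 1 the adjusted p was 0.060, and without si-NC 3 h replicate 2 it was 0.061.

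**Figure D1:**
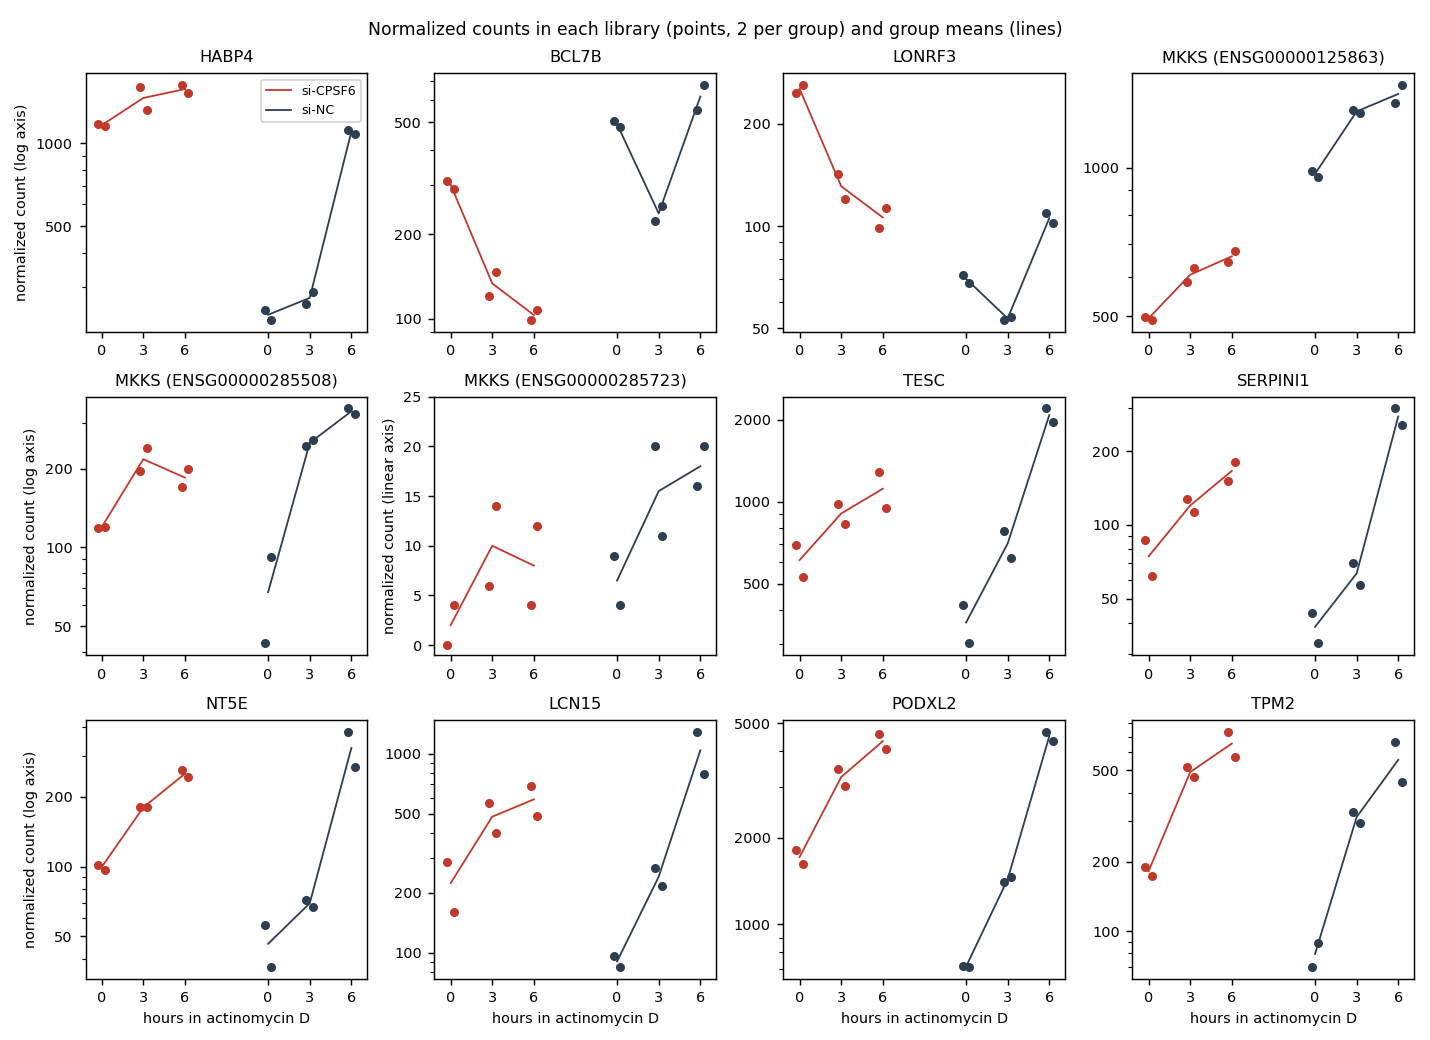
Normalized count (vertical axis, log scale except in the panel of the untested MKKS entry) against hours in actinomycin D for each member entry, si-CPSF6 on the left of each panel and si-NC on the right. Points are single libraries and lines join group means; the steep si-NC segment after 3 h is seen in HABP4, BCL7B, LONRF3, TESC, SERPINI1, NT5E, LCN15 and PODXL2, and TPM2 and both larger MKKS entries have their steeper segment before 3 h.

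At 3 h, a time outside the contrast by which the genes were chosen, 7 of the 11 entries were higher in si-CPSF6. The main MKKS entry and BCL7B, 2 entries, were lower, and 2 did not pass (TESC and the second MKKS entry). Over all 12939 genes 26.2% were called higher and 29.1% lower at 3 h, 55.3% in either direction, so that a call is common in this comparison. The members' log2 differences ran from -1.10 to 2.40, against a median of -0.03 over all genes. The members also differed between the arms before actinomycin D, at a time the choice did use, so that the 3 h count is not free of it. At 0 h the differences were 2.29 for HABP4, -0.71 for BCL7B, 1.84 for LONRF3 and -0.97 for the main MKKS entry, and 0.77 to 1.26 for the other 7 entries. With spike-in scaling 38.6% of all genes were called at 3 h (20.2% higher and 18.4% lower), and the members' calls were the same as on the deposited scale. In the TPM table, fitted as log2(TPM + 1), the calls were also the same. The 3 h difference was 0.72 in NT5E, 0.73 in LONRF3 and 0.54 in SERPINI1, each smaller by over 1.5 times. These genes were low in TPM, where the added 1 shrinks a log2 difference. Mean TPM at 3 h was 2.52 in si-CPSF6 and 1.15 in si-NC for NT5E. It was 2.0 in si-CPSF6 and 0.81 in si-NC for LONRF3, and 3.54 in si-CPSF6 and 2.13 in si-NC for SERPINI1.

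By 6 h the order of the arms was turned in some members and the gap was smaller in others. The 6 h difference was 0.51 for HABP4, 0.00 for LONRF3, -0.06 for PODXL2 and 0.25 for TPM2. It was -0.91 for TESC, -0.73 for SERPINI1, -0.35 for NT5E, -0.80 for LCN15 and -0.84 for the second MKKS entry. BCL7B was further apart than before, at -2.57, and the main MKKS entry was at -1.09, near its 0 h value. By fitted value 6 entries were higher at 0 h and lower at 6 h in si-CPSF6: TESC, SERPINI1, NT5E, LCN15, the second MKKS entry and PODXL2, whose libraries overlapped between the arms at 6 h.

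**Figure D2:**
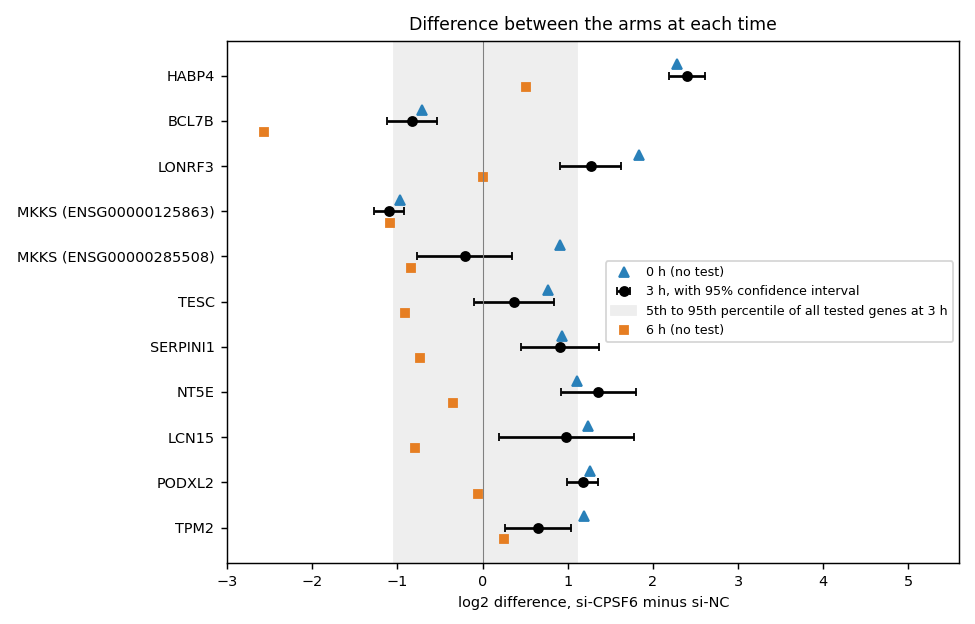
Log2 difference between the arms (si-CPSF6 minus si-NC, horizontal axis) for each tested entry at 0 h (triangles), 3 h (circles with 95% confidence interval) and 6 h (squares), with the range that holds the 5th to 95th percentile of all genes at 3 h in grey. For 8 entries the 6 h square lies well to the left of the 0 h triangle and the 3 h value lies nearer to the triangle; the main MKKS entry barely moves, and in TPM2 and the second MKKS entry the 3 h value lies nearer to the square.

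Split by step, the change differed more between the arms after 3 h than before it in 8 of the 11 entries. From 3 to 6 h the log2 change in si-CPSF6 was between -0.36 (BCL7B) and 0.48 (NT5E), with a median of 0.29 over the 11 entries. In si-NC it was between 0.12 (main MKKS entry) and 2.19 (NT5E), with a median of 1.57. From 0 to 3 h the medians were nearly alike, 0.70 in si-CPSF6 and 0.71 in si-NC. HABP4 moved by 0.32 in si-CPSF6 and 0.20 in si-NC over the first 3 h, BCL7B by -1.17 in si-CPSF6 and -1.05 in si-NC, SERPINI1 by 0.70 in si-CPSF6 and 0.71 in si-NC, and PODXL2 by 0.92 in si-CPSF6 and 1.01 in si-NC. In other members the arms differed more over these 3 h. The second MKKS entry was at 0.85 in si-CPSF6 and 1.98 in si-NC, LONRF3 at -0.95 in si-CPSF6 and -0.38 in si-NC (a difference of -0.57, SE 0.24), and TESC at 0.57 in si-CPSF6 and 0.97 in si-NC. TPM2 was at 1.43 in si-CPSF6 and 1.97 in si-NC, a difference of -0.54 (SE 0.26), against -0.40 (SE 0.26) from 3 to 6 h.

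**Figure D3:**
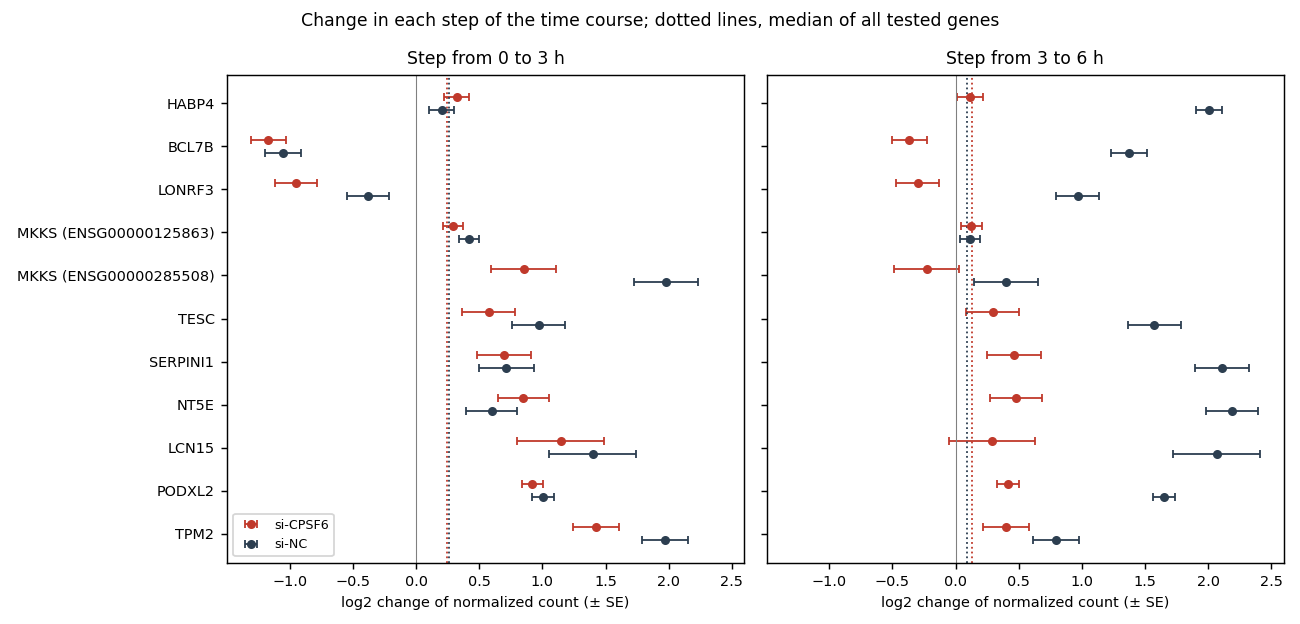
Log2 change of the normalized count from 0 to 3 h (left) and from 3 to 6 h (right) for each tested entry, si-CPSF6 above si-NC within each pair, with the standard error of the fit; dotted lines mark the median of all tested genes in each arm. In the left panel the 2 arms of most entries lie close together, and in the right panel every si-CPSF6 point lies at or below 0.48, against 0.97 to 2.19 for the si-NC points of 8 entries.

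The whole 6 h change, by which the genes were chosen, differed between the arms by -2.03 in LCN15, -1.85 in BCL7B, -1.84 in LONRF3, -1.77 in HABP4 and -1.75 in the second MKKS entry. The values were -1.68 in TESC, -1.66 in SERPINI1, -1.46 in NT5E, -1.32 in PODXL2 and -0.94 in TPM2. Their ranks from the lowest of 12939 genes ran from 12 (LCN15) to 90 (PODXL2), with TPM2 at 336 and the main MKKS entry at 5331. Over all genes 12.4% were called lower in si-CPSF6 in this contrast, 12.0% higher and 24.4% in either direction. In the TPM table, fitted as log2(TPM + 1), the difference was -0.76 in NT5E and -1.10 in SERPINI1, where the added 1 shrinks it. The members' own values here follow from the choice and are not tested.

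Whether a member was above its 0 h level at 6 h depended on the scaling. The deposited counts have an equal upper quartile in each library, and on that scale the median log2 change of all genes from 0 to 6 h was 0.35 in si-CPSF6 and 0.31 in si-NC. Scaled to the spike-in RNA, which refers values to a fixed mass of total RNA and not to a cell, these medians were -0.58 in si-CPSF6 and -0.70 in si-NC. In si-CPSF6 9 of 11 were above 0 on the deposited scale and 5 of 11 with spike-ins, namely SERPINI1 (0.23), NT5E (0.40), LCN15 (0.50), PODXL2 (0.40) and TPM2 (0.90). In si-NC all 11 entries were above 0 on the deposited scale (0.32 to 3.46) and 8 of 11 with spike-ins. BCL7B (-0.69), LONRF3 (-0.41) and the main MKKS entry (-0.47) were then below 0, as they also were in the TPM table (-0.45, -0.13 and -0.31). For the step from 3 to 6 h in si-NC, 10 of 11 stayed above 0 with spike-ins, at 1.07 for BCL7B and 0.67 for LONRF3, and the exception was the main MKKS entry at -0.18.

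**Figure D4:**
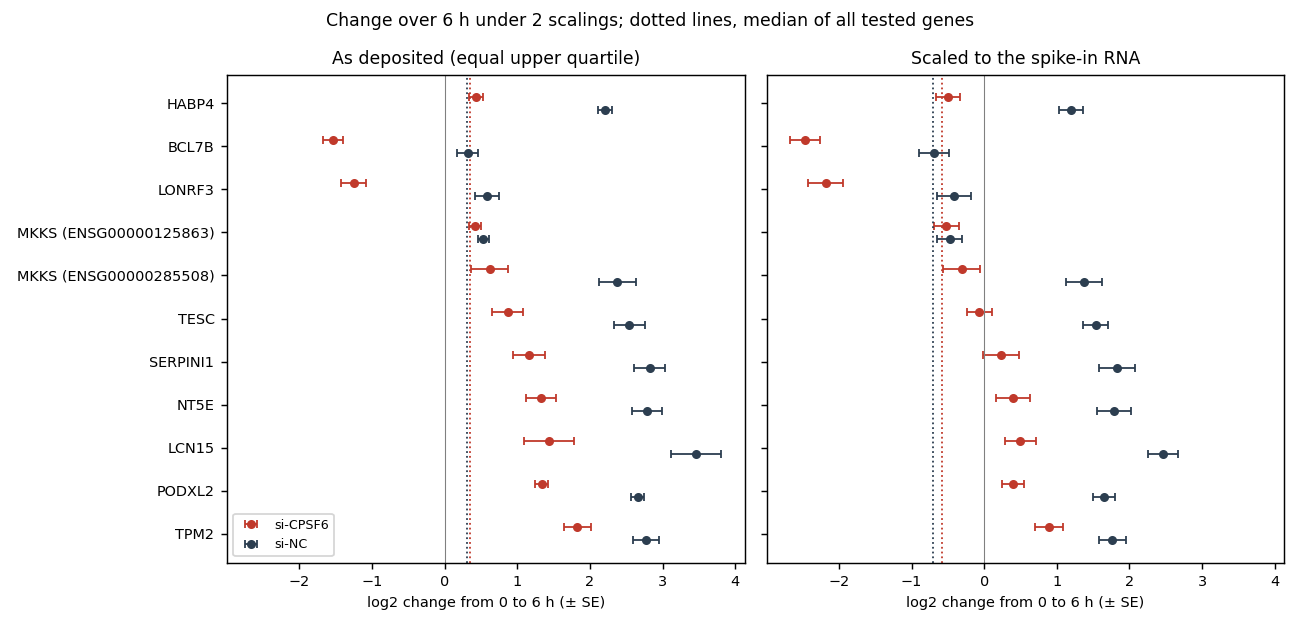
Log2 change from 0 to 6 h for each tested entry on the deposited scale (left) and scaled to spike-in RNA (right), si-CPSF6 above si-NC, with the standard error of the fit and the median of all tested genes as dotted lines. The spike-in scale moves every point to the left by a similar amount and leaves the gap between the arms in place, and in si-CPSF6 5 of the 11 entries then lie above 0, against 9 on the deposited scale.

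Per length, the members covered a wide range of levels. At 6 h in si-NC the mean level was 94.4 ± 4.3 TPM for TESC, 69.9 ± 0.7 for PODXL2 and 65.6 ± 18.0 for LCN15 (SD, n = 2 each), and the last 2 were not apart beyond their spread. It was 20.5 ± 2.5 TPM for the main MKKS entry, 19.5 ± 4.8 for TPM2, 17.2 ± 0.1 for the second MKKS entry, 14.96 ± 2.67 for BCL7B and 13.6 ± 0.2 for HABP4, values whose neighbours lie within their spread. SERPINI1 (6.51 ± 0.44 TPM), NT5E (3.36 ± 1.12) and LONRF3 (1.31 ± 0.02) were lowest. The untested short MKKS entry is so short that its few reads gave 142 ± 96 TPM at 6 h in si-CPSF6 and 325 ± 57 TPM in si-NC, and no weight is put on that level.

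The ratio of the normalized count to the TPM of a gene follows the effective transcript length that the quantification gave it, and its log2, centred on the median of each library, is called the apparent length here. At 3 h this ratio, relative to the median gene of a library, was higher in si-CPSF6 in 5 of the 11 entries. Among these, PODXL2 and the second MKKS entry each have 1 transcript in GENCODE release 29. A call therefore need not mean a longer mRNA. The log2 difference was 0.08 in HABP4 (SE 0.01, limma adjusted p = 0.0055), 0.08 in PODXL2 (SE 0.01, limma adjusted p = 0.0050) and 0.08 in TPM2 (SE 0.02, limma adjusted p = 0.026). It was 0.16 in the main MKKS entry (SE 0.03, limma adjusted p = 0.0088) and 0.06 in the second (SE 0.01, limma adjusted p = 0.019). It did not pass in the other 6, with 0.16 (SE 0.06) in BCL7B, 0.08 (SE 0.13) in LONRF3, 0.04 (SE 0.03) in TESC, 0.29 (SE 0.16) in SERPINI1, 0.30 (SE 0.31) in NT5E and 0.01 (SE 0.07) in LCN15. Over 12895 genes 26.5% were called longer and 5.74% shorter, 32.3% in all. The direction rests on the centring: without it 7 of the 11 were below 0 and 0 passed in limma, also by unadjusted p. In a limma fit of the 3 h libraries alone 0 genes were called, while 4971 genes, 5 of the member entries among them, had an unadjusted p under 0.05. The TPM2 call was lost without any single one of the 3 h libraries (adjusted p = 0.060 to 0.13), that of the second MKKS entry without any of them but si-NC replicate 2 (0.066 to 0.10), and that of the main MKKS entry without si-CPSF6 replicate 1 (0.055). SERPINI1 passed without si-NC replicate 1 of 3 h (adjusted p = 0.034).

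Annotated features were compared with those of all tested genes as a description. The annotated 3′ UTR was below the lower quartile of 506 bases in 5 of the 10 genes: LCN15 (182), TESC (209), TPM2 (233), SERPINI1 (243) and PODXL2 (329), against a median of 1270. MKKS, at 4238 bases, was above the upper quartile of 2630. The longest annotated coding transcript was below the lower quartile of 2050 bases in BCL7B, TESC, SERPINI1, LCN15 and TPM2. Transcript GC content was above the upper quartile of 57.2% in BCL7B (59.1%), TESC (61.1%), LCN15 (62.5%), PODXL2 (64.2%) and TPM2 (60.4%), and below the lower quartile of 42.4% in MKKS (37.9%) and SERPINI1 (40.3%). Exon numbers lay inside the quartiles (5 to 14) in all 10.

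**Figure D5:**
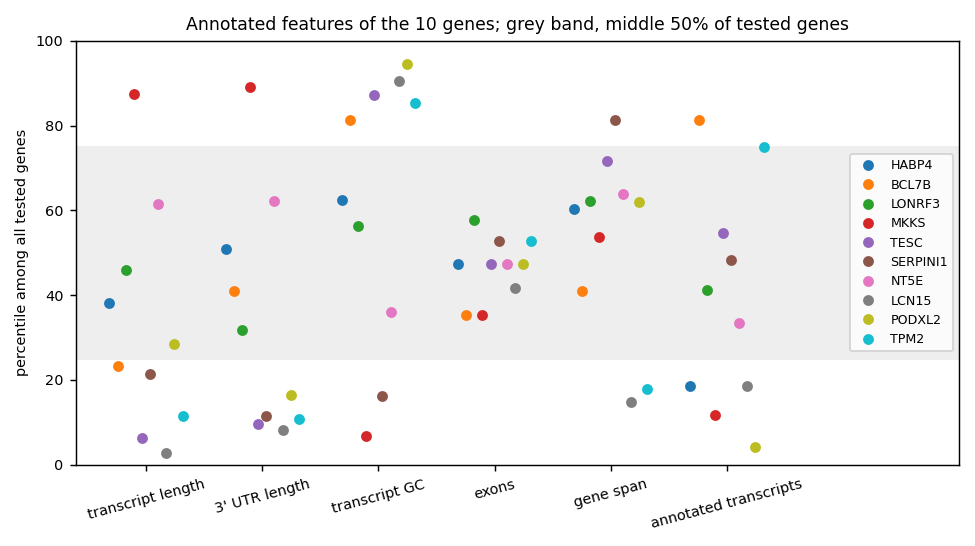
Percentile of each of the 10 genes among all tested genes (vertical axis) for 6 annotated features (horizontal axis), with the middle 50% of genes in grey. For 3′ UTR length 5 genes lie below the grey band, for transcript GC content 5 lie above it, and for exon number all lie inside it.

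The members were not uniform over the 12 libraries. With each entry standardized, the 6 members TESC, SERPINI1, NT5E, LCN15, PODXL2 and TPM2 correlated pairwise at 0.85 to 0.97 (15 pairs, Pearson's r over libraries that share arms and times, a group chosen after its values were seen). The mean profile of the 11 entries includes each entry itself and the 0 h and 6 h libraries used in the choice. High correlations of members with it are therefore partly built in. The correlation was 0.98 for SERPINI1, 0.98 for LCN15, 0.97 for TESC, 0.96 for NT5E, 0.95 for PODXL2 and 0.87 for TPM2. It was 0.79 for the second MKKS entry and 0.74 for HABP4, and 0.27 for LONRF3, 0.13 for the main MKKS entry and -0.10 for BCL7B. Among 10397 other genes with a mean of at least 100, the 8 most like that mean profile were FMC1 (r = 0.992), MCRIP2 (0.980), PLEKHB2 (0.977), GANAB (0.976), BOLA2-SMG1P6 (0.973), KLHDC3 (0.972), IER3IP1 (0.970) and PIPOX (0.970). GANAB, the alpha subunit of the endoplasmic reticulum glucosidase II, was at 6002 and 5644 normalized counts at 0 h, 9965 and 9771 at 3 h and 14210 and 12730 at 6 h in si-CPSF6. In si-NC it was at 3238 and 2911 at 0 h, 5009 and 4778 at 3 h and 19503 and 16960 at 6 h, which is the order of the arms seen in TESC and SERPINI1. No function is read from this likeness.

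Relatives of the members were tested for the difference of the 6 h change between the arms. The nearest match was TPM4, a tropomyosin of non-muscle cells and paralog of TPM2. It was at 7239 and 7256 normalized counts at 0 h, 11638 and 12036 at 3 h and 14579 and 14449 at 6 h in si-CPSF6, against 2885 and 2790 at 0 h, 3734 and 3984 at 3 h and 17992 and 17525 at 6 h in si-NC. The si-CPSF6 libraries were higher at 0 and 3 h and lower at 6 h, with no overlap. The difference of its 6 h change was -1.64 (SE 0.09, limma adjusted p = 2.9e-08), and at 3 h it was higher in si-CPSF6 by 1.62 (SE 0.06, adjusted p = 9.9e-11). The other tropomyosins had smaller differences, -0.49 (SE 0.09, adjusted p = 0.00095) in TPM3 and -0.35 (SE 0.10, adjusted p = 0.021) in TPM1. The TPM1 call was lost without si-CPSF6 0 h replicate 1, si-CPSF6 6 h replicate 1, si-NC 0 h replicate 1 or 2, or si-NC 6 h replicate 1.

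Of 16 tested genes of the tropomyosin and actin list 0 were higher in si-CPSF6 in this contrast, 6 lower and 10 did not pass, with a median of -0.23 against -0.03 over all genes. With the replicate number as a block 1 was higher and 8 lower. The block raised the number of calls over all genes from 3153 to 4395. Without the block 12.0% of all genes were called higher and 12.4% lower. At 3 h 5 genes of the list were higher and 2 lower, against 26.2% and 29.1% of all genes. Of 22 tested SWI/SNF subunits 0 were higher, 9 lower and 13 did not pass (median -0.22), including SMARCE1 (-0.74, SE 0.12), SMARCD1 (-0.71, SE 0.10) and BRD7 (-0.64, SE 0.10). At 3 h 4 of the subunits were higher and 10 lower, in a comparison that called 55.3% of all genes. The 2 BCL7 paralogs of BCL7B differed from each other: BCL7C was at -0.63 (SE 0.12, limma adjusted p = 0.0015), whereas BCL7A was at -0.01 (SE 0.20, adjusted p = 0.99), with fewer mRNA counts at 6 h than at 0 h in both arms. BCL7A was higher in si-CPSF6 at 3 h by 1.51 (SE 0.14, adjusted p = 6.1e-07), where BCL7B was lower, and by 0.97 in the TPM table.

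Of 17 tested genes of the chaperonin and BBSome list, to which MKKS is related, 1 was higher, 4 were lower and 12 did not pass (median -0.16). With the replicate number as a block 1 was higher and 5 were lower. Of all genes 24.4% (3153) were called in this contrast without the block, and 4395 with it. CCT6A was at -0.57 (SE 0.13) and CCT5, another subunit of the cytosolic chaperonin, at -0.55 (SE 0.10). At 3 h 1 was higher and 8 were lower, together near the share of 55.3% called over all genes. Among the lower ones was BBS1, a BBSome subunit, at -0.81 (SE 0.11, limma adjusted p = 2.5e-05), a call lost in the TPM table at -0.21 (adjusted p = 0.42). Around NT5E, 11 genes of extracellular adenosine were tested, with 1 higher, 1 lower and 9 not passed in the 6 h contrast (median -0.13). With the replicate number as a block 2 were higher and 3 lower, the other higher one being ENPP1 at 0.39 (adjusted p = 0.0016). The one that was higher, ALPL, a phosphatase of the cell surface, was at 0.88 (SE 0.26, adjusted p = 0.022), a call lost without si-CPSF6 0 h replicate 1, si-CPSF6 6 h replicate 2, si-NC 0 h replicate 2 or si-NC 6 h replicate 1. At 3 h 6 of the adenosine genes were higher and 2 lower, with a median of 0.41, against 26.2% higher and 29.1% lower over all genes.

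The 8 tested lipocalins gave 1 higher, 1 lower and 6 not passed (median -0.28), and 0 higher and 3 lower at 3 h. With the replicate block 2 were higher and 2 lower in the 6 h contrast, with ORM1 at 0.39 (limma adjusted p = 0.00041) as the other higher one. The lower one without the block, C8G, had a mean of 24 normalized counts and its value of -1.81 (SE 0.63, limma adjusted p = 0.048) was lost in 9 of the 12 fits without 1 library. Of 11 plasminogen activators and serpins 2 were higher, 2 lower and 7 did not pass (median 0.17), with the same split at 3 h. With the replicate block 3 were higher and 3 lower in the 6 h contrast, and 3 higher and 2 lower at 3 h. Without the block 24.4% of all genes (3153) were called in the 6 h contrast and 55.3% (7154) at 3 h. With the block 4395 genes were called in the 6 h contrast and 7966 at 3 h. SERPINB6 was at -0.66 (SE 0.12) and SERPINE2, which also inhibits plasminogen activators, at -0.64 (SE 0.11), while SERPINF2 was at 0.60 (SE 0.10). Of the other near paralogs, SERBP1 (-0.03, SE 0.10), LONRF1 (-0.20, SE 0.19), CHP1 (0.18, SE 0.11) and PODXL (0.22, SE 0.42) did not pass. Of the 22 such genes, markers and CPSF6 included, that passed in the 6 h contrast, 3 also passed with spike-in scaling (TPM4, SERPINF2 and the hepatocyte marker TTR) and 13 in the TPM table. The 9 whose calls were lost in the TPM table were ADK, ALPL, C8G, CCT6A, CNN2, TPM1, TPM3 (-0.32), BRD7 (-0.38) and BBS1 (-0.21). By list, limma with spike-in scaling called 1 tropomyosin and actin gene and 2 plasminogen activators and serpins in the 6 h contrast. It called 0 in the other 4 lists, and 1059 of all 12939 genes. In those 4 lists 6 SWI/SNF, 3 chaperonin and BBSome, 3 adenosine and 2 lipocalin genes had an unadjusted p under 0.05. The share of all genes at that unadjusted threshold is not given here, so that nothing is read from these counts. The TPM table gave 5 calls for SWI/SNF, 2 for chaperonin and BBSome, 0 for adenosine (1 by unadjusted p), 1 for lipocalins, 2 for tropomyosin and actin and 4 for plasminogen activators and serpins. Over all genes it gave 1553 calls. At 3 h spike-in scaling gave 7 calls for SWI/SNF, 5 for chaperonin and BBSome, 4 for tropomyosin and actin and 0 for lipocalins (0 also by limma's unadjusted p), and the TPM table gave 1 for lipocalins. Over all genes spike-in scaling called 38.6% at 3 h, and the TPM table called 5463 genes.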

How the data were processed

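RNA-seq of 12 HepG2 libraries was used: 2 arms, 3 times, 2 replicates per group. STAR, RSEM and hg38 are named in the submitters' processing notes, and their versions, the annotation and the use of strand were not given. The deposited normalized counts were treated as a score, because the authors scaled gene counts to an equal upper quartile and rounded them. They are not raw counts, and no count test was run. The deposited TPM values come from the same quantification. They were fitted as log2(TPM + 1) in genes with a mean of at least 1 TPM, which makes differences of low genes smaller. The number of columns left out was 0. Of the markers of other cells 1 is not reported here.

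Differences between groups were fitted by limma (version 3.58.1 in R 4.3.3, with trend and robust settings) to log2(normalized count + 1). All 12 libraries entered 1 fit of 6 group means, which left 6 residual degrees of freedom and covered 12939 genes with a mean of at least 20. P-values were adjusted by Benjamini-Hochberg over all of them, with a threshold of 0.05. A fold or factor between the arms at 3 h is 2 to the power of the fitted difference, which understates changes of low genes. A factor between times within an arm is the ratio of the mean normalized counts of the groups. Spike-in scaling used the median log ratio of 47 ERCC spike-ins with a mean of at least 20. Its log2 factors differed between replicates, at 0.287 and -0.083 in si-CPSF6 at 3 h and 0.541 and 0.301 in si-NC at 6 h. The replicates of the other groups were closer to each other. Depth was recovered from gaps in the attainable whole values, as scaling factors of 0.7036 to 1.3983. Expected and observed gaps correlated at 0.564 to 0.859, so that depth is an estimate. The p-values measure only the spread between these replicates.

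Symbols came from a table of gene names (22069 of 22148 genes), features from GENCODE release 29 (21676 matched) and promoters from RefSeq, build GRCh38.p14. Whether the submitters counted on that annotation is unknown. The members and the gene lists were chosen with earlier results of these data known, and the lists of relatives give counts and medians only. Named besides the members are up to 3 genes per list with the smallest p in the 6 h contrast, close paralogs, markers, and the 8 genes most like the members' mean profile. Alternatives were another pseudocount (0.1 or 10), filter, scaling, unit, limma setting or set of libraries, a replicate block, and each library left out.

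Replicates had correlations of 0.9911 to 0.9931, and a chi-square per degree of freedom of 6.91 to 12.5 put their differences above sampling noise. Libraries with the same replicate number deviated together, with correlations of 0.11 to 0.24 in the 15 pairs of groups. Since each exceeded 0.1, replicate numbers count as pairs here, a pairing that comes from the data and not from the labels. The main fit leaves this pairing out, so that its calls and shares are unpaired. The paired fit, with the replicate number as a block, called 7966 genes at 3 h and 4395 in the 6 h contrast.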

Additional observations from a re-analysis of the deposited data

Results flagged for a closer look

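The difference of the 6 h change between the arms (si-CPSF6 minus si-NC, log2) passed limma's test of that difference in 22 genes named beside the members, 18 of them lower and 4 higher in si-CPSF6. Most of these genes were named for a small p in this contrast, in which 24.4% of all genes were called. With spike-in scaling 19 of the 22 calls were lost, and 9 in the TPM table. Among the member entries the standard error of this difference was larger with spike-ins except in TESC, LCN15 and the second MKKS entry. For HABP4 it was 0.24, against 0.14 on the deposited scale. A lost call therefore need not mean a smaller difference. Lower were the SWI/SNF subunits SMARCD1 (-0.71), SMARCE1 (-0.74), BRD7 (-0.64) and BCL7C (-0.63). So were the chaperonin subunits CCT5 (-0.55) and CCT6A (-0.57), the BBSome subunit BBS1 (-0.54) and adenosine kinase ADK (-0.29). The lipocalin-like complement chain C8G was at -1.81, the tropomyosins TPM4 at -1.64, TPM3 at -0.49 and TPM1 at -0.35, and the actin-binding CNN2 at -0.53. The serpins SERPINB6 (-0.66) and SERPINE2 (-0.64), the hepatocyte genes TTR (-0.84) and FGB (-0.71), and CPSF6 itself (-0.66, and -1.27 in the TPM table) were also lower. Higher were ALPL (0.88), AMBP (0.27), SERPINF2 (0.60) and APOA1 (0.40). Of the 12 fits without 1 library, the call was lost in 12 for ADK, 11 for AMBP, 9 for C8G, 5 each for BBS1 and TPM1 and 4 for ALPL, and in 0 for the other 16.

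In BCL7B (-1.85) and LONRF3 (-1.84) both si-CPSF6 libraries at 6 h were below the si-CPSF6 libraries at 0 h, and both si-NC libraries at 6 h were above the si-NC libraries at 0 h. That difference was not tested, because the genes were chosen on it, and with spike-in scaling both arms were below 0 in both genes.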

How the results depend on the processing

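The count of genes called at 3 h (7154) was 4999 to 7966 over the alternatives and 5727 to 7380 without 1 library. The share called higher was 47.4%, with 52.4% under spike-in scaling and 58.1% in the TPM table. For the 6 h contrast (3153 genes, 49.1% higher) spike-in scaling gave 1059 genes (75.4% higher) and TPM values gave 1553 (64.4% higher), and leaving out 1 library gave 2017 (without si-CPSF6 0 h replicate 1) to 3134. Apparent length at 3 h (4159 genes, 82.2% longer) gave 630 genes without centring (4.13% longer), 0 in a fit of the 3 h groups alone and 2786 to 4284 without 1 library. The cause was not tested. With the replicate block, the paired fit, the counts were 7966, 4395 and 3954; among the members TESC then passed at 3 h, the apparent length of BCL7B (0.16) passed with adjusted p = 0.046, and no other call of a member at 3 h level changed, while among the other named genes the block added BRD7 and PDGFRB at 3 h and ENPP1, ORM1 and PDGFRB in the 6 h contrast. Of 242 member values at 3 h under alternatives 232 kept their call, 8 lost it (LCN15 and TPM2) and 2 gained it (TESC), and none turned sign. The members' 6 h contrast kept its sign in all 242, with 28 beyond 1 SD, of which 8 were in the TPM table (HABP4, BCL7B, LONRF3, the second MKKS entry, SERPINI1, NT5E, PODXL2 and TPM2). The genes were chosen on this contrast and the alternatives reuse its libraries, so that the kept sign is not a check of it. Values that turned sign were, without centring of apparent length, HABP4 (-0.026), LONRF3 (-0.025), the second MKKS entry (-0.045), TESC (-0.067), LCN15 (-0.092), PODXL2 (-0.023) and TPM2 (-0.028). Without 1 library, apparent length ran from -0.028 to 0.05 in LCN15, -0.119 to 0.277 in LONRF3 and -0.055 to 0.66 in NT5E. The 6 h contrast of BCL7A was 0.066 with spike-ins and -0.098 to 0.085 without 1 library, that of SERBP1 0.042 and -0.122 to 0.055, and that of PODXL -0.20 to 0.64 without 1 library. At 3 h C8G was at 0.009 in the TPM table, and without 1 library CNN2 ran from -0.002 to 0.263 and SMARCE1 from -0.002 to 0.21. Groups of 2 limit every value, and where 1 library is left out the lone sample is assumed to vary like the other groups; counts under about 100, as in SERPINI1 and NT5E at 0 h in si-NC, are the least precise.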
